A study of Mus musculus with 5 samples.

Results

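Dermal papilla cells of control mouse skin were divided by whether they held transcripts of eGFP, the reporter that marks cells with a history of Lepr-Cre activity. Lepr-Cre expresses the Cre recombinase from the leptin receptor locus, and mTmG is a Rosa26 reporter that changes from membrane tdTomato to membrane eGFP in cells where Cre has acted. The control libraries came from whole, unsorted back skin of female Lepr-Cre;mTmG mice at postnatal day 46 and were made with 10x Genomics 3′ chemistry. A second pair of libraries, from female Lepr-Cre;mTmG;Smo+/- mice of the same age (called mutant here), was used to repeat the comparison, to test the difference between genotypes, and in the fits that left out a control library. The labels' protocols write the control genotype with Smo after the reporter and the sample titles without it, so what the controls carry at Smo beside the reporter and the driver cannot be told apart here. Per the protocols, the 2 libraries of each genotype are technical replicates. The p-values therefore carry no spread between animals, and the number of mice is not given. A difference between the genotypes thus cannot be told apart from one between animals or preparations. Cre is driven from the leptin receptor locus in every cell of the body that uses it, not in the papilla alone.

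Members were chosen by measured values, namely their counts of papilla, keratin and collagen genes and of eGFP, under 4 conditions. It had 500 to 8000 genes and at most 10% mitochondrial UMIs. It had 3000 to 12000 UMIs (unique molecular identifiers, each 1 captured transcript). It held at least 3 UMIs of Slc26a7, Pappa2, Prlr, Alx4, Notum and Crispld1 in sum. It held fewer than 20 UMIs of Krt14 and Krt5, and fewer than 50 of Col1a1 and Col3a1, per 10000 UMIs. Members numbered 209 in control library 1 and 256 in control library 2, or 465 of the 16678 control barcodes that passed the gene and mitochondrial limits, in a series of 45654 barcodes. Cells with at least 3 eGFP UMIs are called traced (37 and 35 cells, 72 in all), and those with 0 eGFP UMIs untraced (120 and 119 cells, 239 in all). The other 154 members held 1 or 2 eGFP UMIs and were left out of the comparison. These names stand for UMI counts: a cell that has recombined may be counted at 0, and eGFP RNA from other cells may enter a droplet. The mutant libraries gave 1724 members by the same conditions, 238 traced and 881 untraced.

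The dermal papilla is a cluster of mesenchymal cells at the base of the hair follicle that signals to the epithelium through Wnt, Bmp and Fgf family ligands and their inhibitors. It persists through the hair cycle, and in resting follicles it stays beside the bulge and germ. A lineage reporter records past Cre activity, so a cell can keep eGFP after the driver locus falls silent, and a cell that uses the locus now may not yet have recombined. The comparison therefore asks whether papilla cells with the reporter differ, in Lepr or in any other gene, from papilla cells of the same library without it.

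Both groups carried the papilla genes used to choose them, which are described here with no test. Notum, which removes the lipid that Wnt ligands need, stood at 819 and 761 CPM (the UMIs of a gene scaled to a fixed total of UMIs in the summed cells) in traced and at 541 and 622 CPM in untraced cells of libraries 1 and 2. Prlr, the prolactin receptor, stood at 789 and 980 CPM in traced and at 643 and 716 CPM in untraced cells. Slc26a7, an anion exchanger, was at 498 and 599.8 CPM in traced and 497 and 573 CPM in untraced cells. Pappa2, a protease that cleaves insulin-like growth factor-binding proteins, was at 134 and 175 CPM in traced and 202 and 175 CPM in untraced cells, and Crispld1 at 153 and 322 against 109 and 153 CPM. Alx4 gave 5 and 3 UMIs in traced and 6 and 8 UMIs in untraced cells, too few to order. Of 6 defining papilla markers fixed for this check, the summed level was 1493 and 1083 CPM in traced and 1422 and 1264 CPM in untraced cells, so the groups overlapped and the papilla markers were present in both.

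Traced cells made up 17.7% (37 of 209, exact Clopper-Pearson 95% interval 12.8 to 23.6) and 13.7% (35 of 256, 9.71 to 18.5) of papilla cells in the 2 control libraries, a mean of 15.7% ± 2.85 (SD, n = 2). The mutant libraries gave 15.6% and 12%, a mean of 13.8% ± 2.52 (SD, n = 2), and the genotypes overlapped. A two-sided exact permutation test gave p = 0.667, where 2 libraries against 2 can give no less than 0.33. The intervals cover counting error only. The share followed the minimum set for eGFP, and was 22.98% at 2 or more, 9.36% at 5 or more and 8.54% at 7 or more eGFP UMIs. By depth, the mean share was 12.2% between 3000 and 6000 UMIs and 19.2% between 5000 and 12000 UMIs. That shift lay mostly in library 1, at 10.9% and 23.7%, while library 2 gave 13.5% and 14.6%.

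Cells that should lack the reporter also held eGFP, mostly as 1 or 2 UMIs. Within the same range of UMIs, 28.4% of 391 and 29.5% of 387 keratinocytes of the control libraries held at least 1 eGFP UMI, against 42.6% and 53.5% of papilla cells. Keratinocytes were deeper, with medians of 9066 and 9226 UMIs against 5365 in papilla cells of either library. At 3 or more UMIs the keratinocyte share fell to 1.79% and 1.29%, and that of other fibroblasts was 2.95% and 3.29%. At 7 or more UMIs 0 of 391 and 0 of 387 keratinocytes remained, while 10.0% and 7.03% of papilla cells did (the upper exact limits for the keratinocytes were 0.939% and 0.949%). Papilla cells thus stood above keratinocytes at each minimum, with intervals that did not overlap at 3 or at 7 eGFP UMIs.

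**Figure D1:**
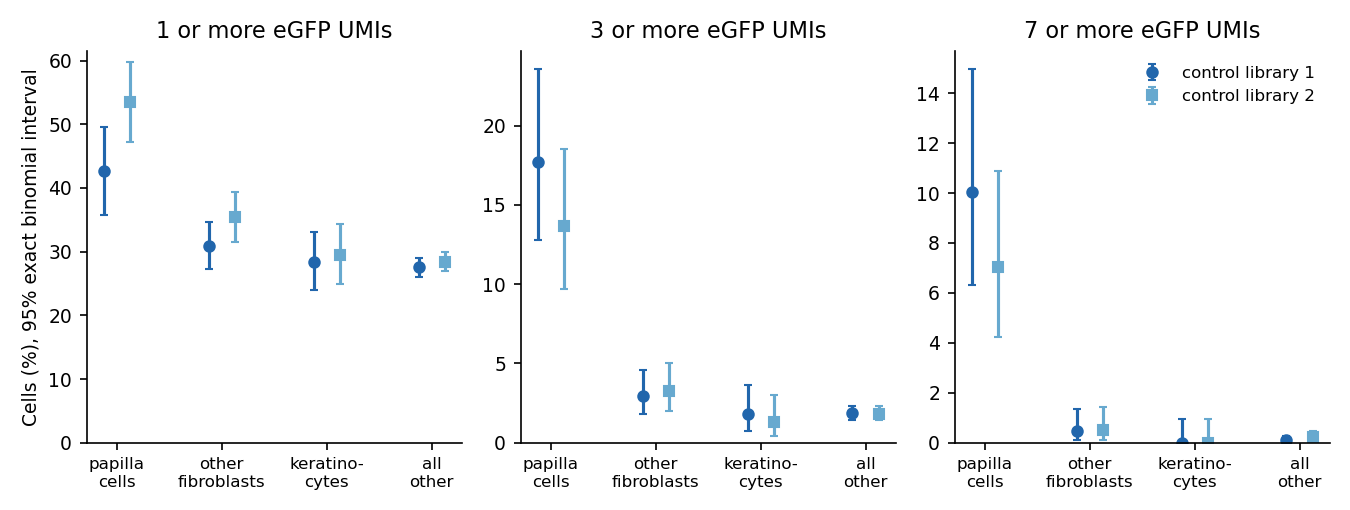
Share of cells with at least 1, 3 or 7 eGFP UMIs (vertical axis, percent, a separate scale in each panel) among papilla cells, other fibroblasts, keratinocytes and all other cells of the 2 control libraries, all with 3000 to 12000 UMIs. Points are libraries and bars exact 95% binomial intervals. At 3 or more UMIs papilla cells sit at 17.7% and 13.7% and keratinocytes at 1.79% and 1.29%.

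The loss of tdTomato, which recombination removes, was seen in cells with many eGFP UMIs and not in those just past the minimum. Of 72 traced control cells, 29 held 3 or 4 eGFP UMIs, 12 held 5 to 9, and 31 held 10 or more. In the 29 cells just inside the minimum tdTomato stood at 1337 CPM, and 0 of 29 lacked it. In the 154 cells just outside, with 1 or 2 eGFP UMIs, it stood at 1327 CPM and 5 cells lacked it. Untraced cells had 1060 CPM, and 15 of 239 (6.28%) lacked it. In cells with 10 or more eGFP UMIs the level was 545 CPM, and 11 of 31 (35.5%) lacked it. By library these cells held 736 and 305 CPM, both under the untraced 1051 and 1070 CPM. Mutant cells showed the same order for these counts, with 1137 CPM at 0, 1661 CPM at 3 or 4 and 194 CPM at 10 or more eGFP UMIs. Of the mutant cells with 10 or more, 67 of 135 (49.6%) lacked tdTomato. At 5 to 9 eGFP UMIs the genotypes differed. Control cells there stood at 710 CPM, under the untraced level, and 3 of 12 lacked tdTomato. Mutant cells there stood at 1591 CPM, above their untraced level, and 5 of 24 lacked it.

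**Figure D2:**
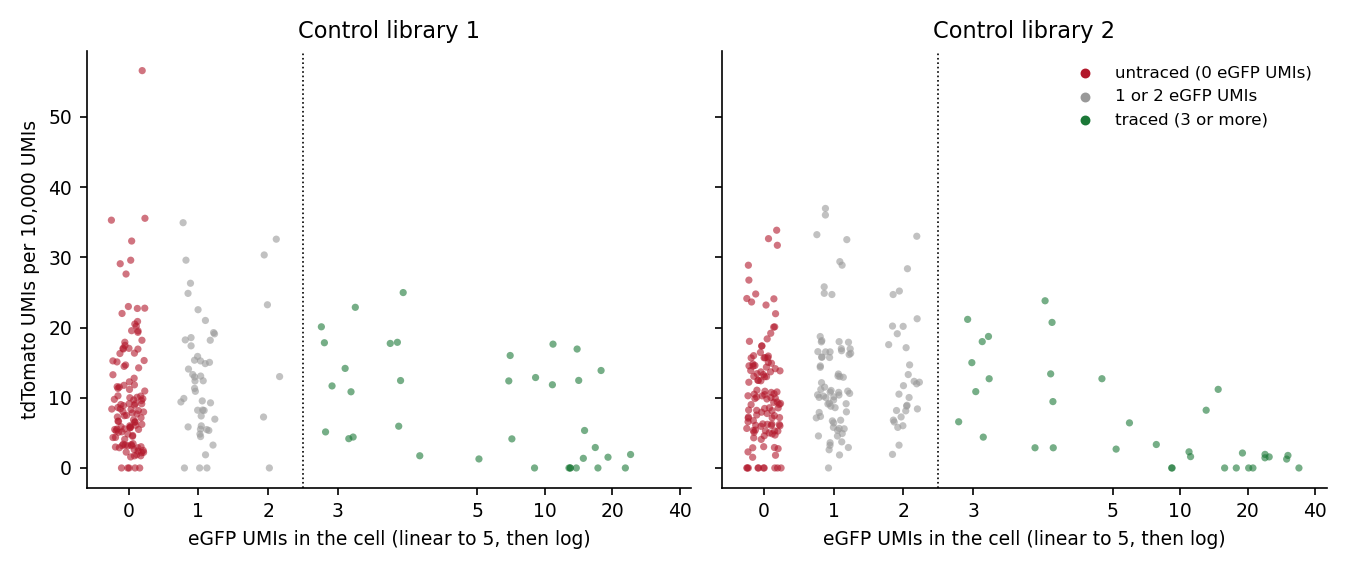
Each point is 1 papilla cell of control library 1 or 2, placed by its eGFP UMIs (horizontal axis, linear to 5 and logarithmic above, points shifted sideways at random for display) and its tdTomato UMIs per 10000 UMIs (vertical axis). Cells with 3 or 4 eGFP UMIs lie in the range of untraced cells, and 11 of the 31 cells with 10 or more lie at 0.

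Summed over all traced cells, tdTomato was not called lower in the controls. It stood at 944 and 834 CPM in traced and at 1063 and 1082 CPM in untraced sums on the TMM scale, a scaling of each sum by its library composition that is used for all levels from here on unless they are called plain. The log2 difference was -0.27 ± 0.157 (SE, edgeR adjusted p = 0.607). In the mutants it was -0.58 ± 0.0758 (edgeR adjusted p = 4.4e-04), which passed the test but not the fold minimum. Gt(ROSA)26Sor, the transcript of the locus that holds the reporter, stood at 68.0 and 124 CPM in traced and 66.0 and 86.9 CPM in untraced control sums (0.31 ± 0.306, edgeR adjusted p = 0.847).

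Lepr did not differ detectably between papilla cells with and without the reporter. Lepr encodes the receptor for leptin, the hormone of adipocytes, and lies on chromosome 4 from 101717404 to 101815352 on the plus strand (GRCm38, GENCODE). It stood at 86.9 and 66.6 CPM in traced and at 86.5 and 71.9 CPM in untraced sums. The groups overlapped, and the library moved the level more than the reporter did. The log2 difference was -0.05 ± 0.32 (SE, n = 2 libraries, edgeR adjusted p = 0.994). Passing the test took several times the error, as for Egr1, described below, at 0.52 ± 0.146 (edgeR adjusted p = 0.0365). A Lepr difference well above 0.32 could therefore also have been missed. In the mutants the Lepr difference was 0.30 ± 0.186 (edgeR adjusted p = 0.443). By eGFP content the plain level in the controls was 78.1 CPM at 0, 73.1 at 1 or 2, 88.2 at 3 or 4, 54.6 at 5 to 9 and 77.2 CPM at 10 or more UMIs, with no order.

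The share of cells with a Lepr UMI gave no order either. Without thinning, 13 of 37 (35.1%) and 10 of 35 (28.6%) traced and 32 of 120 (26.7%) and 34 of 119 (28.6%) untraced control cells held one. Traced cells were deeper in library 1 (median 7368 against 4903 UMIs) and nearer in library 2 (5407 against 4937 UMIs). After each cell was thinned to 3000 UMIs, which left out no cell, the shares were 8.11% (exact 95% interval 1.70 to 21.9) and 22.9% (10.4 to 40.1) in traced and 22.5% (15.4 to 31.0) and 20.2% (13.4 to 28.5) in untraced cells. Keratinocytes, used as background, gave 1.02% and 0.517% at the same depth. Both papilla groups were above that background in point value, and the interval of the traced cells of library 1 overlapped that of keratinocytes.

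Other genes of the leptin pathway gave no call. Of 15 listed genes 14 were tested and 0 were called at an adjusted p under 0.05 and a fold of at least 2, in a comparison that called 38 of 6010 genes (0.632%) with 575 genes at an unadjusted p under 0.05. The median log2 difference of the list was 0.19, beside -0.01 for all genes tested. Socs3, the feedback inhibitor that leptin and other cytokines induce through Stat3, stood at 1129 and 989 CPM in traced and 827 and 909 CPM in untraced control sums (0.29 ± 0.156, edgeR adjusted p = 0.551). In the mutants it rose by a log2 difference of 0.59 ± 0.0745 (edgeR adjusted p = 3.1e-04), under the fold minimum. Stat3 itself stood at 529 and 528 against 432 and 584 CPM in the controls. Smo, the membrane protein that passes on the Hedgehog signal, was at 45.3 and 57.7 against 45.6 and 33.0 CPM (0.38 ± 0.402, edgeR adjusted p = 0.849).

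The lists that describe papilla identity and its signals were likewise quiet. Of 43 papilla markers not used in the selection 27 were tested, 0 were called, and their median log2 difference was -0.0011. Crabp1, a retinoic acid-binding protein, stood at 1322 and 945 CPM in traced and 1316 and 1170 CPM in untraced sums (-0.14 ± 0.154, edgeR adjusted p = 0.849). Igfbp3, which binds insulin-like growth factors, stood at 3422 and 3097 against 3122 and 2695 CPM (0.17 ± 0.146, edgeR adjusted p = 0.817). No member was called among 8 Hedgehog pathway genes, 3 secreted Wnt inhibitors, 16 Wnt ligands, R-spondins and Wnt response genes, 14 hair growth signals, 7 Notch genes, 4 dorsal Hox genes, 17 collagens, 13 interferon and MHC genes and 4 cell cycle genes that were tested. Among those, Spp1, the secreted phosphoprotein osteopontin, was at 1515 and 466 CPM in traced and 1085 and 1450.2 CPM in untraced sums, so the libraries differed in direction. In the mutants, where more cells were summed and 60 of 9953 genes (0.603%) were called, 1 member each of 3 of these lists was called, Spp1 lower (-1.15, edgeR adjusted p = 2.0e-05), Hes1, a Notch target, higher (1.00, 3.1e-05), and Irf1, an interferon response factor, higher (1.27, 4.6e-06). There, 3 of 13 Hedgehog genes passed the adjusted p alone, all higher in traced cells (132 genes, or 1.33%, did so in that direction), and 0 were called. They were Gli1 (log2 0.83), Ptch1 (0.69) and Hhip. In the controls Gli1 stood at 0.92 ± 0.621 (edgeR adjusted p = 0.699) and Ptch1 at 0.39 ± 0.368 (0.841).

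The control comparison called 8 genes higher (0.133% of genes tested) and 30 lower (0.499%) in traced cells, and the number of calls depended on how the cells were chosen and tested. The sums of the same library were compared with library as a block (edgeR quasi-likelihood test, Benjamini-Hochberg adjustment). At the adjusted p alone 62 genes passed (1.03%), 17 higher and 45 lower (0.749%). The block leaves 1 residual degree of freedom, and the fit gave every gene the spread of its level class, so a gene carried by 1 cell can pass. In 8 of the 38 genes over 50% of the UMIs of the higher group lay in 1 cell, and in 13 over 25% did. Without the block 14 genes were called, all lower, and DESeq2 called 3, all lower. With all cells thinned to 3000 UMIs 10 genes were called, at 5 or more eGFP UMIs 8, between 3000 and 6000 UMIs 3, and with at least 6 marker UMIs 0 (332 genes at an unadjusted p under 0.05). Leaving out control library 1 or 2 in a joint fit with the mutants, where the lone control library is assumed to vary like the other libraries, gave 14 or 18 calls.

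Vcam1 was called lower in traced control cells under 15 of the 17 other settings tried. It encodes an adhesion molecule that binds integrins on immune and other cells, and lies on chromosome 3 from 116109949 to 116129688 on the minus strand. Traced sums held 15.1 and 22.2 CPM and untraced sums 137 and 201 CPM, with no overlap. The log2 difference was -3.16 ± 0.383 (SE, n = 2 libraries, edgeR adjusted p = 2.4e-13). The traced cells gave 4 UMIs in 3 of 37 and 5 UMIs in 4 of 35 cells, the untraced cells 87 UMIs in 30 of 120 and 134 UMIs in 31 of 119 cells. No untraced cell held more than 8.14% of the untraced UMIs. After thinning, 0 of 37 and 2 of 35 traced and 22 of 120 and 23 of 119 untraced cells held a UMI. The call held without control library 1 (-3.20) and without library 2 (-3.18), without the block (-3.18), in DESeq2 (-3.16, adjusted p = 0.025) and at 7 or more eGFP UMIs (-3.78). It did not pass between 3000 and 6000 UMIs (-2.22, edgeR adjusted p = 0.211) or with at least 6 marker UMIs (-2.82, 0.211).

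Vcam1 differed between the control and the mutant libraries in this respect. The libraries of a genotype are technical replicates, so genotype cannot be told apart here from animal or preparation. In the mutants it stood at 286 and 321 CPM in traced and 338 and 424 CPM in untraced sums (-0.32 ± 0.097, edgeR adjusted p = 0.0985). The difference between the 2 effects, mutant minus control, was 2.86 on the log2 scale (edgeR interaction adjusted p = 6.2e-05). It stayed past the threshold with any of the 4 libraries left out (2.78 to 2.96, highest edgeR adjusted p = 0.0373). The interaction test called 5 of 7932 genes (0.063%), and in all 5 the log2 difference was higher in the mutants. At the adjusted p alone 6 passed (0.0756%), also all higher.

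Dcn and Sox9 were also called lower in traced control cells. Dcn, the collagen-binding proteoglycan decorin (chromosome 10, 97479609 to 97518143, plus strand), stood at 41.5 and 35.5 CPM in traced and 261 and 127 CPM in untraced sums. The groups did not overlap, and the log2 difference was -2.33 ± 0.315 (SE, edgeR adjusted p = 1.6e-10). It was not called without control library 1 (-1.87, edgeR adjusted p = 0.172) and was without library 2 (-2.66, 0.00869). Sox9, a transcription factor of follicle stem cells and sheath epithelium (chromosome 11, 112782224 to 112787760, plus strand), stood at 11.3 and 8.87 CPM in traced and 50.3 and 77.9 CPM in untraced sums (-2.59 ± 0.55, edgeR adjusted p = 9.7e-04). Sox9 was not called without control library 1 (-3.15, 0.0574) or 2 (-2.15, 0.291). It was also lost (-1.66, edgeR adjusted p = 0.472) once barcodes with at least 50 UMIs of keratinocyte or erythroid markers per 10000 were left out. That setting was chosen after seeing the data, and Sox9 is itself among its 23 keratinocyte markers. The loss of Sox9 there can thus follow from the choice of barcodes and is no separate evidence. In the mutants Dcn was at 158 and 237 against 230 and 205 CPM and Sox9 at 46.3 and 42.9 against 39.9 and 40.9 CPM. The interaction was 2.18 for Dcn (edgeR adjusted p = 0.0014) and 2.77 for Sox9 (0.0348). Neither passed without control library 1 (Dcn 1.70, edgeR adjusted p = 0.63, and Sox9 3.30, 0.296) or 2 (2.49, 0.0692 and 2.31, 0.432), and Sox9 did not without mutant library 1 (2.69, 0.061).

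Vcam1, Dcn and Sox9 were also set against each other within single untraced control cells. Of the 61 cells with a Vcam1 UMI, 22 also held Dcn (36.1%), against 62 of the 178 without Vcam1 (34.8%). For Sox9 the shares were 7 of 61 (11.5%) and 29 of 178 (16.3%). Deeper cells hold more genes, and that was not allowed for in these shares.

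Among genes of the extracellular matrix, 3 were called lower in traced control cells. Of 36 listed matrix and proteoglycan genes 28 were tested, 3 were called, all lower (0.499% of all genes tested were called lower), and the median log2 difference was -0.44, beside -0.01 for all genes. Besides Dcn these were Postn and Tnn. Postn, the matricellular protein periostin, stood at 49.1 and 17.7 CPM in traced and 157 and 58.4 CPM in untraced sums (-1.68 ± 0.373, edgeR adjusted p = 0.00159). Traced library 1 and untraced library 2 lay close to each other, and the call was lost without control library 1 (-1.74, edgeR adjusted p = 0.355) or 2 (-1.68, 0.0963). Tnn, tenascin-N, stood at 60.4 and 35.5 against 123 and 132 CPM (-1.38 ± 0.323, edgeR adjusted p = 0.00366), and was lost without library 1 (-1.92, 0.0731) or 2 (-1.03, 0.397). In the mutants 0 of 35 matrix genes were called and the median was -0.16, with Postn at -0.80 (edgeR adjusted p = 0.0108). Of 17 collagens tested in the controls the median was -0.20 and 0 were called. Col1a2 passed the adjusted p alone, lower in traced cells, as did 0.749% of all genes tested in that direction. Members had been capped on Col1a1 and Col3a1, which were not tested. Dermal fibroblast markers summed to 1773 and 1934 CPM in traced and 2324 and 1942 CPM in untraced cells, with all 14 markers seen in both untraced sums and 11 and 12 of 14 in the traced sums. The untraced sums held more UMIs (643422 and 674996 against 261144 and 223414), so more markers can be seen in them through depth. Dcn is itself among the 14. The part of dermal fibroblasts in these differences was not tested.

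**Figure D3:**
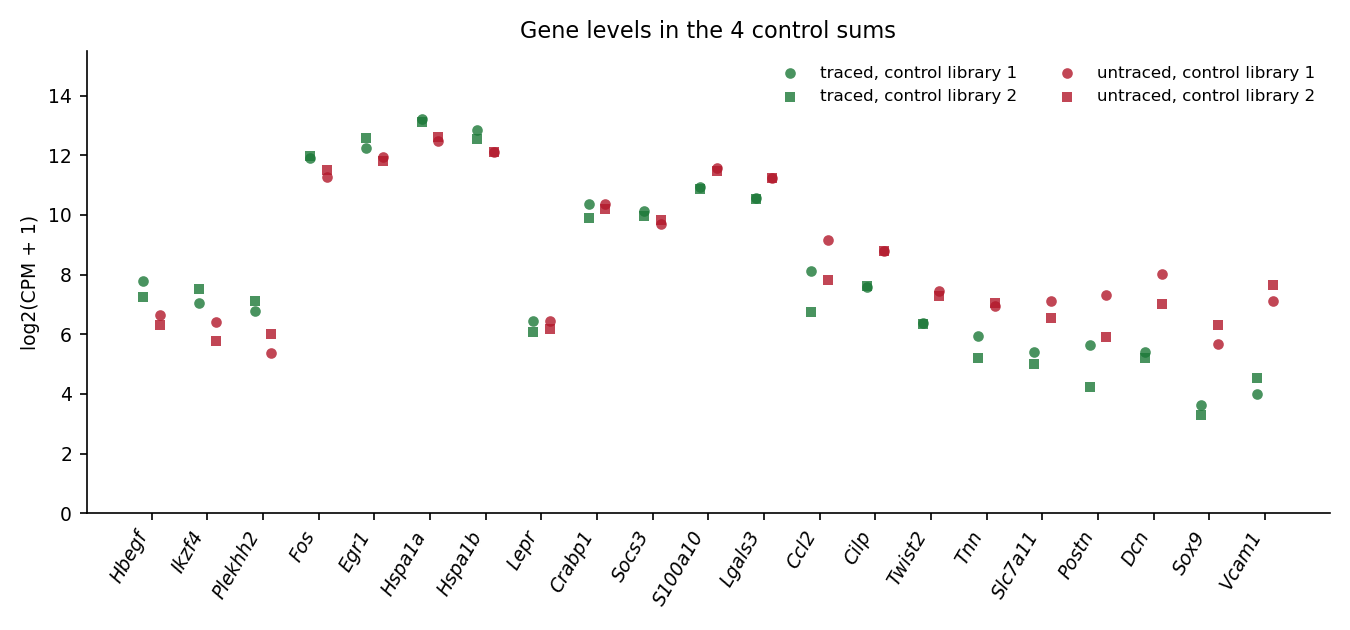
Levels of 21 genes in the 4 control sums (vertical axis, log2 of TMM-scaled CPM plus 1), with traced sums in green and untraced sums in red, circles for library 1 and squares for library 2. Lepr and Crabp1 overlap between groups, Lgals3 and S100a10 are separated by a small step, and Vcam1, Sox9 and Dcn by a large one.

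Cilp, Twist2, Ctsk, Slc7a11 and Ccl2 were also called lower in traced control cells. Cilp, a matrix protein first known from cartilage, stood at 193 and 195 CPM in traced and 446 and 443 CPM in untraced sums (-1.20 ± 0.199, SE, edgeR adjusted p = 1.3e-06). Both libraries gave nearly the same values, but the call was lost without either one (-1.21, edgeR adjusted p = 0.0619 without library 1 and -1.22, 0.057 without library 2). Twist2, a mesenchymal transcription factor, stood at 83.1 and 79.9 against 173 and 154 CPM (-1.01 ± 0.27, edgeR adjusted p = 0.0221). Twist2 was the called member among 17 papilla transcription factors tested, where 0.499% of all genes tested were called lower. Slc7a11, the cystine transporter, stood at 41.5 and 31.1 against 138 and 91.4 CPM, and Ctsk, a lysosomal protease, at 49.1 and 26.6 against 130 and 105 CPM. Ccl2, a chemokine that draws monocytes, stood at 279 and 106 against 564 and 223 CPM (-1.03 ± 0.205, edgeR adjusted p = 2.5e-04), where traced library 1 exceeded untraced library 2. One untraced cell held 40.7% of the untraced Ccl2 UMIs. Without library 1 or 2 the adjusted p of Twist2 was 0.334 or 0.286, of Slc7a11 0.35 or 0.209, of Ctsk 0.107 or 0.201, and of Ccl2 0.0836 or 0.0106 (edgeR). Slc7a11 and Ccl2 were called lower in traced mutant cells too (-1.28 and -1.24).

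A further set of lower genes came from a few barcodes. Hbb-bs, a haemoglobin chain, stood at 3606 and 22.5 CPM in untraced and 15.1 and 22.2 CPM in traced sums, so in library 2 the levels were close. In library 1 a single untraced barcode held 2286 of its 2294 UMIs. Without library 1 the log2 difference was -0.05 (edgeR adjusted p = 0.991). Cst6, Krt79 and Defb6, which are expressed in the epithelium of the follicle opening and skin glands, were lower by log2 differences of -5.57, -5.16 and -4.53. In library 2, 1 untraced cell held 467 of 476 Cst6 UMIs, and Defb6 had 253 of 387 in 1 cell. Follicle keratinocyte markers summed to 264 and 210 CPM in traced and 1044 and 1247 CPM in untraced cells, and suprabasal markers to 352 and 291 against 553 and 671 CPM. The follicle list holds Cst6, Krt79, Krt17, Sox9 and Postn, and the suprabasal list Krtdap. These genes were themselves called lower, so the sums partly restate the calls and are no separate evidence. In each control library 4 untraced and 0 traced members held at least 50 UMIs of keratinocyte or erythroid markers per 10000. With these left out, 16 genes were called, 2 higher and 14 lower. Cst6, Krt79, Defb6 and Hbb-bs then fell under the count filter, and Krt17, a follicle keratin called at -1.28, stood at 0.02. Cst6, Krt79, Krt17 and Hbb-bs are themselves among the markers that set which barcodes were left out, and Defb6 is not. For those markers the change can follow from the choice of barcodes and is no separate evidence. Vcam1 (-3.19), Dcn (-2.35) and Cilp (-1.24) were still called.

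Of the 8 genes called higher in traced control cells, 4 had over 50% of their traced UMIs in 1 cell. Areg, an EGF receptor ligand, had 56 of its 62 traced UMIs in library 1 in 1 cell and 41 of 42 in library 2 in another. P2rx4, an ATP-gated channel, had 72 of 76 UMIs of library 2 in 1 cell. Tagln, an actin-binding protein of smooth muscle, had 21 of 22 UMIs of library 1 in 1 cell, and Cryab had 68.2% of all traced UMIs in 1 cell. Their calls changed with the library left out. P2rx4 stood at 2.74 without library 1 and 0.06 without library 2, Areg at 0.24 and 2.40, Tagln at 1.84 and 2.71 with neither passing, and Cryab at -0.73 and 3.097. Tagln was the called member among 6 contractile genes tested, where 0.133% of all genes tested were called higher.

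The other higher genes were spread over many cells. Hbegf, another EGF receptor ligand, stood at 219 and 151 CPM in traced and 99.0 and 77.9 CPM in untraced sums, with no overlap (log2 difference 1.06 ± 0.249, SE, edgeR adjusted p = 0.00372). It was seen in 22 of 37 and 14 of 35 traced and in 32 of 120 and 20 of 119 untraced cells. After thinning the counts were 13 and 10 traced and 24 and 14 untraced cells. Ikzf4, a zinc finger transcription factor, stood at 132 and 182 against 84.9 and 53.9 CPM (1.17 ± 0.274, edgeR adjusted p = 0.00366), and Plekhh2, a cytoskeletal adaptor, at 110 and 138 against 40.9 and 62.9 CPM (1.26 ± 0.31, 0.00721). Hbegf was called neither without library 1 (0.92, edgeR adjusted p = 0.321) nor without library 2 (1.14, 0.109), Plekhh2 likewise (1.10, 0.257 and 1.41, 0.19), and Ikzf4 not without library 2 (0.63, 0.624). In the mutants Hbegf was called at nearly the same size (1.08 ± 0.135), at 183 and 159 against 89.0 and 72.3 CPM. Ikzf4 there passed the test under the fold minimum (0.82), and Plekhh2 did not (0.32, edgeR adjusted p = 0.319). Vps52, a vesicle tethering protein, gave 14 UMIs in 14 traced cells and was lost without either library.

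Some immediate early and heat shock genes were higher in traced cells by less than the fold minimum. Immediate early genes such as Fos and Egr1 encode transcription factors induced within minutes by growth factors or stress, and heat shock genes such as Hspa1a and Hspa1b encode chaperones induced by misfolded protein. Both kinds are also known to rise when tissue is taken apart into single cells. Of 22 listed genes, all tested, 0 were called at the fold minimum in the controls, and 4 passed the adjusted p alone, all higher in traced cells, as did 17 of all genes tested in that direction (0.283%). Their median log2 difference was 0.15. In the mutants 2 of 22 were called, both higher (0.291% of all genes tested were called higher). There, 14 rose and 1 fell at the adjusted p alone (1.33% and 2.35% of all genes tested did), with a median of 0.50 beside 0.01 for all genes.

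The promoters of Hspa1a, Hspa1b and Fos are shown because all 3 passed the adjusted p in the controls and the first 2 genes are near copies that read counting can confuse. Sequences are RefSeq's (GRCm38.p6), 250 bases up to the start site, 5′ to 3′ in the sense of the gene. They span chr17:34972157-34972406 (minus strand) for Hspa1a, chr17:34959239-34959488 (minus strand) for Hspa1b and chr12:85473640-85473889 (plus strand) for Fos. Capitals mark, in the heat shock genes, GAANNTTC, a pair of inverted units of the heat shock element, and in Fos, TGACG, the core of the cAMP response element.
Hspa1a: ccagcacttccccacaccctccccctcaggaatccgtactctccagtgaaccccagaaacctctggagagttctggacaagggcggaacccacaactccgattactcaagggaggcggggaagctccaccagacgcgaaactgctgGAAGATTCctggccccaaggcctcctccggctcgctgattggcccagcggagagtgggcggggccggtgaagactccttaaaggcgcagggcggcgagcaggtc
Hspa1b: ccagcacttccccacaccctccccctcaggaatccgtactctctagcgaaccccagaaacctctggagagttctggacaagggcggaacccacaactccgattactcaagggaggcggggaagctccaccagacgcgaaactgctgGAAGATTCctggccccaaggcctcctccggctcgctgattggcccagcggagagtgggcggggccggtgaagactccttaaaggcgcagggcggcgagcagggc
Fos: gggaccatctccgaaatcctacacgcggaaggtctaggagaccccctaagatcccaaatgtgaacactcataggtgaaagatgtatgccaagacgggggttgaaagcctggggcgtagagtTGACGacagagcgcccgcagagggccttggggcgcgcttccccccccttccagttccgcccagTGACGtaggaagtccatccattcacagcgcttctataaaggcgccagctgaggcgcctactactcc
The promoters of Hspa1a and Hspa1b were identical at 247 of 250 bases, and each held GAANNTTC once, its first base 104 bases before the start site. Fos held 2 matches of TGACG, their first bases 129 and 66 bases before the start site. Of 32851 promoter entries searched on both strands, 6.69% held GAANNTTC, 7.17% held TTCNNGAA, the other order of the same units, and 17.8% held TGACG. Matches of the 3 motifs can share bases. Of the 18 listed genes with an entry, 4 held GAANNTTC, 2 TTCNNGAA and 11 TGACG. These matches describe letters only.

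Hspa1a stood at 9529 and 8812 CPM in traced and 5657 and 6256 CPM in untraced control sums (0.62 ± 0.146, SE, edgeR adjusted p = 0.00366). Hspa1b stood at 7304 and 5972 against 4387 and 4419.6 CPM (0.59 ± 0.146, 0.00851). Because both genes are near copies, the split of counts between them is uncertain. Fos stood at 3796 and 4020.1 against 2495 and 2923 CPM (0.53 ± 0.146, edgeR adjusted p = 0.0281), and Egr1 at 4849 and 6057 against 3949 and 3617 CPM (0.52 ± 0.146, 0.0365). In all 4 genes both traced sums lay above both untraced sums. None passed once cells were thinned to 3000 UMIs (edgeR adjusted p from 0.224 for Hspa1a to 0.428 for Fos), although the differences kept their sign (0.45 to 0.60). Without library 1 Hspa1a stood at 0.46 (edgeR adjusted p = 0.0844) and Hspa1b at 0.41 (0.109), and without library 2 Egr1 stood at 0.29 (0.229). In the mutants Fos (1.00) and Egr1 (1.21) were called and Hspa1a (0.93) and Hspa1b (0.64) passed under the fold minimum. Egr1 differed between the genotypes by 0.69 (edgeR interaction adjusted p = 0.0253), but not past the threshold without the first control library (0.50, 0.0521), the first mutant library (0.79, 0.186) or the second (0.63, adjusted p = 1).

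Pooled over both control libraries, Fos and Gadd45g had their highest values in cells with 3 or 4 eGFP UMIs and Hspa1a in those with 10 or more. The pools held 29 cells at 3 or 4, 12 at 5 to 9 and 31 at 10 or more eGFP UMIs. They carry no value per library and no error, so close values cannot be ordered. In the controls the plain Fos level was 2684 CPM at 0, 3627 at 1 or 2, 4674 at 3 or 4, 4493 at 5 to 9 and 3031 CPM at 10 or more eGFP UMIs. Gadd45g, a stress response gene named after its values were seen, went from 651 CPM at 0 to 1558 at 3 or 4 and 415 CPM at 10 or more. Hspa1a was at 5897 CPM at 0, 9122 at 3 or 4, 7757 at 5 to 9 and 10033 CPM at 10 or more eGFP UMIs. The cells with 10 or more, where tdTomato was low, thus held Fos near and Gadd45g under the untraced level, and Hspa1a above it. At 5 or more eGFP UMIs the log2 difference of Fos was 0.31 (edgeR adjusted p = 0.914). Vcam1 and Dcn went the other way. Vcam1 was at 168 CPM in cells without eGFP, 82.4 at 1 or 2, 29.4 at 3 or 4, 0 at 5 to 9 (0 UMIs of 73224) and 14.5 CPM at 10 or more, and Dcn at 190, 139, 34.3, 81.9 and 29.0 CPM. The 6 selection markers stood at 2129 CPM in cells without eGFP, 3278 CPM at 3 or 4 and 2022 CPM at 10 or more, and the median UMIs of these cells were 4909, 6451 and 6191. The part of depth in these orders was not tested.

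**Figure D4:**
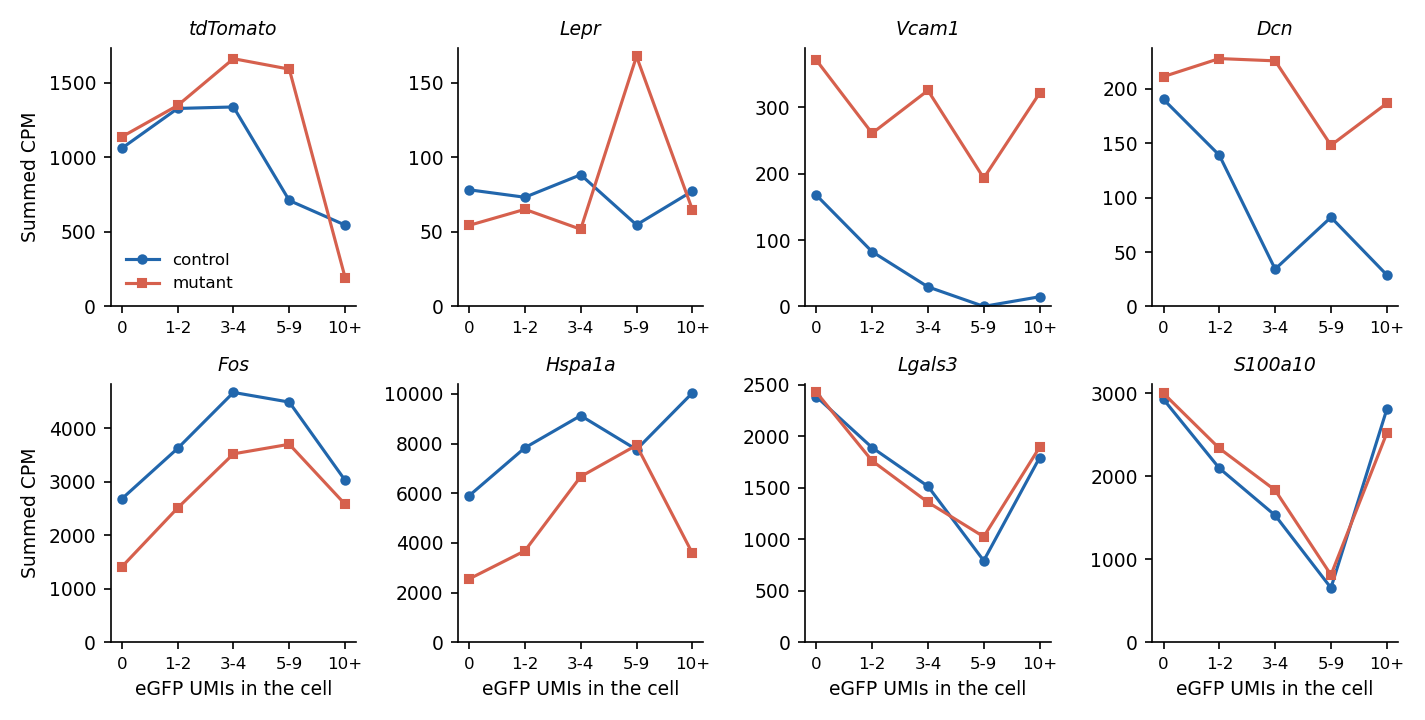
Plain CPM of 8 genes (vertical axes, separate scales from 0) in papilla cells summed over both libraries of a genotype, by the eGFP UMIs of the cell (horizontal axis). Blue circles are control and red squares mutant cells. Control Fos peaks at 3 or 4 eGFP UMIs and stands at 3031 CPM at 10 or more, tdTomato drops in the cells with most eGFP, and control Vcam1 stays low from 3 UMIs on while mutant Vcam1 does not.

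A group of small differences lay in the same direction in both genotypes. Of the 38 called control genes all were tested in the mutants, and 31 (81.6%) had the same sign there, against 61.6% of the 5999 genes tested in both. Of the 60 genes called in the mutants 36 were tested in the controls and 34 (94.4%) had the same sign. The calls shared by both, with the same sign, numbered 7, or 18.4% of the control calls and 7 of the 60 mutant calls. They were Hbb-bs, Defb6, Cst6, Krt79, Slc7a11 and Ccl2, lower, and Hbegf, higher. At the adjusted p alone, which 366 genes (3.68%) passed in the mutants, 33 genes passed in both genotypes with the same sign, 10 higher and 23 lower. Among them, named after their values were seen, Lgals3, the sugar-binding protein galectin-3, stood at 1526 and 1482 CPM in traced and 2435 and 2387 CPM in untraced control sums (-0.68 ± 0.15, SE, edgeR adjusted p = 0.00153) and at -0.65 in the mutants. S100a10, the partner of annexin A2, stood at 1968 and 1864 against 3054 and 2866 CPM (-0.63 ± 0.148, edgeR adjusted p = 0.004) and at -0.58 in the mutants. Cd44, the hyaluronan receptor, was at -0.71 and -0.61, Anxa1 at -0.70 and -0.51, Tpm1, a tropomyosin, at -0.80 and -0.46, and Hmox1, haem oxygenase, at -0.92 and -1.10. Lgals3 (-0.72, -0.68) and S100a10 (-0.65, -0.64) passed the test without either control library. Neither passed after thinning (-0.58, edgeR adjusted p = 0.21 and -0.56, 0.233).

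**Figure D5:**
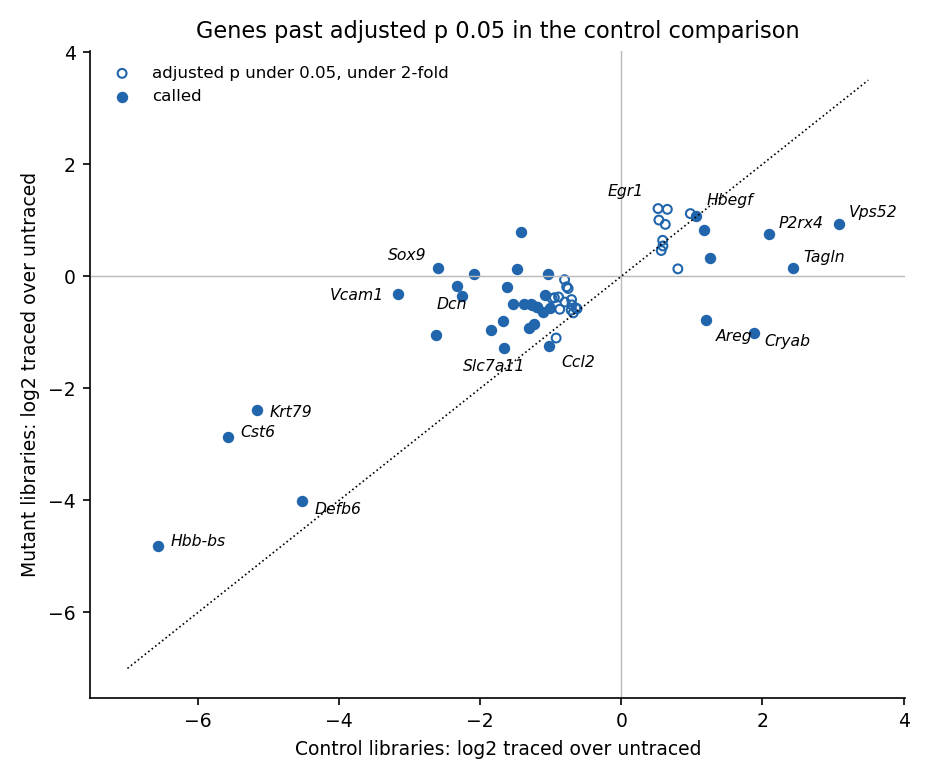
Log2 difference of traced over untraced papilla cells in the control (horizontal axis) and mutant libraries (vertical axis) for 61 of the 62 genes that passed adjusted p 0.05 in the controls (those with a UMI in traced control cells), filled where they also passed the 2-fold minimum. The dotted line marks equal differences. Cst6, Krt79, Defb6 and Hbb-bs lie far down in both genotypes, and Vcam1, Sox9 and Dcn, among others, are low in the controls and near 0 in the mutants.

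The depth behind the sums sets what could be seen. The traced sums held 261144 and 223414 UMIs and the untraced sums 643422 and 674996 UMIs in the controls, against 918744 and 637209 and 2572611 and 2698040 UMIs in the mutants. Whole control libraries held 163044933 and 171197845 UMIs, and any 2 unsorted libraries shared between 117 and 192 cell barcodes. Mitochondrial UMIs were 3.44% and 3.08% in traced and 3.0004% and 2.94% in untraced cells by median. Doublets by score numbered 1 traced and 3 untraced cells in library 1 and 1 and 4 in library 2. Blood endothelial markers summed to 548 and 363 CPM in traced and 403 and 348 CPM in untraced cells, with 6 and 5 of 12 seen in the traced sums and Cdh5, Cldn5, Emcn and Kdr at 0 in all 4 sums. Macrophage and dendritic markers summed to 203 and 112 against 127 and 138 CPM, with 8 and 5 of 13 seen in the traced sums and Adgre1, C1qb and C1qc at 0 in all 4. Pericyte and smooth muscle markers summed to 368 and 125 against 113 and 187 CPM, with 7 of 10 seen in both traced sums. The part of these cell types in the differences was not tested.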

How the data were processed

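The deposited files hold UMI counts per gene and barcode, not normalized. Per the matrix headers, the unsorted libraries were counted with Cell Ranger 3.1.0. The submitters' processing notes also name Cell Ranger 2.1.1, Seurat 3.2.2, Scanpy 1.6.0 and the build mm10 (GRCm38), with no role given. The members and gene lists were chosen with earlier results of these data known. Counts of traced and of untraced members were summed per library, and eGFP and the 10 genes of the selection were left out of the tests. The sums were compared with edgeR 4.0.16 (R 4.3.3), with TMM scaling, edgeR's filter on low counts, library as a block and the quasi-likelihood test. Calls needed a fold of at least 2 and an adjusted p (Benjamini-Hochberg, all genes tested) under 0.05. DESeq2 1.42.0 was an alternative, and the tests were tried on simulated data. Leaving out 1 library used a fit over the other 3.

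Both sums of a library come from the same preparation, so library pairs them by construction. The correlation of their deviations over 1617 control genes was 0.0149, and -0.0794 over 1566 mutant genes. Doublets were scored with scrublet in scanpy 1.11.5. Its automatic threshold called 0 cells in control library 1, so a score above 0.25 was used in all libraries. Named genes were the reporters, Lepr, Smo, the selection genes, the called genes of largest difference (up to 12 in each direction, same sign in both libraries, at least 50 CPM), up to 10 called in both genotypes, and up to 4 called members of each list or the 2 of highest level. Cilp, Cryab, Vps52, Krt17, Col1a2, Fos, Egr1, Gadd45g, Lgals3, S100a10, Cd44, Anxa1, Tpm1, Hmox1, Gli1, Ptch1, Hhip, Mmp13 and Krt15 were named after their values were seen. The sorted library was not used in a comparison. Some results are not reported here.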

Additional observations from a re-analysis of the deposited data

Results flagged for a closer look

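The difference between traced and untraced cells was itself different between mutant and control papilla cells for 6 genes (edgeR interaction test, mutant minus control, log2). The values were 2.86 for Vcam1, 2.77 for Sox9, 2.18 for Dcn, 0.69 for Egr1, 5.39 for Mmp13, a collagenase, and 2.23 for Krt15, a keratin of basal and bulge epithelium. Of these Vcam1 alone passed with any of the 4 libraries left out. Mmp13 had 53 traced UMIs in 1 cell of mutant library 2 and 42 untraced UMIs in 7 cells of control library 2, and did not pass without control library 2 (2.87, edgeR adjusted p = 0.808). Krt15 had 133 of its 164 traced UMIs of mutant library 2 in 1 cell, and did not pass without control library 1 (2.75, edgeR adjusted p = 0.558), control library 2 (1.37, 0.757) or mutant library 2 (0.82, adjusted p = 1).

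A YFP transcript, which the control comparison did not use, was counted in the mutant libraries, with 1304 and 1285 UMIs over all barcodes, against 1 and 0 UMIs in the control libraries. In mutant papilla cells it stood at 60.02 and 64.3 CPM in traced and 33.9 and 30.2 CPM in untraced sums (log2 0.94 ± 0.202, edgeR adjusted p = 0.0162). The labels do not name a YFP allele.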

How the results depend on the processing

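The count of 38 control calls became 36 with DESeq2's size factors, 36 in a fit of all 4 libraries, 36 with edgeR's robust setting, 47 with no low-count filter and 46 at 2 or more eGFP UMIs. It became 14 with no replicate block and 3 with DESeq2. It was 8 at 5 or more eGFP UMIs, 4 at 7 or more, 3 between 3000 and 6000 UMIs, 10 between 5000 and 12000 UMIs, 10 after thinning, 0 with at least 6 marker UMIs (edgeR, 332 genes at an unadjusted p under 0.05), 19 without doublets, 16 without keratinocyte and erythroid barcodes, 62 by the adjusted p alone and 14 to 18 without 1 control library. The 60 mutant calls became 112 at 2 or more, 27 at 5 or more and 24 at 7 or more eGFP UMIs, 164 between 5000 and 12000 UMIs, 138 with at least 6 marker UMIs, 119 without doublets and 24 to 41 without 1 mutant library. The 5 interaction calls ranged from 2 to 12 with 1 library left out. The mean traced share of 15.7% became 22.98%, 9.36% and 8.54% at 2, 5 and 7 or more eGFP UMIs, 12.2% between 3000 and 6000 UMIs, 19.2% between 5000 and 12000 UMIs and 13.7% to 17.7% without 1 library. Log2 differences turned sign for P2rx4 (-0.98 at 5 or more and -0.88 at 7 or more eGFP UMIs), Areg (-2.35 without doublets), Krt17 (0.019 without keratinocyte and erythroid barcodes) and Cryab (-0.73 without replicate 1 and 3.097 without replicate 2). Krt17 is itself among the markers by which those barcodes were left out. The cause of these turns was not tested. The settings of 7 or more eGFP UMIs, without keratinocyte and erythroid barcodes, robust, the leave-outs of the interaction and the mutant selections were chosen after seeing the data.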
